A study of Drosophila melanogaster with 18 samples.

Results

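Genes of the contractile apparatus of muscle were followed across 18 arrays of Drosophila melanogaster ovary RNA. Of 32 muscle genes listed, 26 had a probe set (a group of short probes on the array) whose annotation names that gene alone, among 11953 genes measured in this way. Where several sets named a gene alone, the one that was brightest on average across all 18 arrays stood for it, and no difference between groups entered that rule. Mhc, Act57B, Tm1, TpnC47D, TpnC25D and wupA had no set of their own here and were not analysed here. The annotation places 8 of the 26 genes on chromosome arm 2R, 7 on 3L, 7 on 3R, 2 on X, 1 on 2L and 1 on chromosome 4.

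Striated muscle shortens when thick filaments of myosin pull on thin filaments of actin. Tropomyosin and the troponins make that pull depend on calcium, Z-discs anchor the thin filaments, and elastic giant proteins tie thick filaments to Z-discs. In the fly ovary, muscle cells form the sheath that wraps each string of egg chambers and the net that covers the whole organ. The flight muscles of the thorax use actin, troponin C and thick filament proteins of their own. The thorax is a separate part of the body from the abdomen, which holds the ovaries.

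The samples were ovaries of females of 4 genotypes, in 6 groups of 3 biologically independent samples. At 20 °C they were yw (the control stock), Marcal1del/del (homozygous for a deletion in Marcal1, which encodes a DNA strand annealing helicase), RpII2154/FM7 (females with a mutant RpII215, which encodes the catalytic subunit of RNA polymerase II, over the balancer chromosome FM7) and RpII2154/FM7;Marcal1del/del, called the combined genotype from here on. At 25 °C, which the labels call a heat stress, only yw and Marcal1del/del were sampled. Every RpII2154 animal was a heterozygote with a balancer, and neither the females' age nor the number of ovaries pooled for a sample is stated in the labels.

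Every level is a log2 intensity normalized by the authors with RMA, so 1 unit is a doubling, and a level compares arrays for 1 gene but not 1 gene with another. Array medians lay between 4.08 and 4.20. The Marcal1 probe set averaged 7.94, 7.79 and 8.11 in yw, RpII2154/FM7 and yw at 25 °C, and 5.87, 5.84 and 6.03 in Marcal1del/del, the combined genotype and Marcal1del/del at 25 °C. The mean of 10 germline markers lay between 9.48 and 9.85 on all 18 arrays, above every array median. Arrays were taken as standing apart from their groups in 3 cases: the mean of 11 eggshell genes was 10.47 on yw replicate 1 at 20 °C and 8.61 on RpII2154/FM7 replicate 3, against 12.83 to 13.30 on the other arrays of those groups, and yw replicate 1 at 25 °C stood apart in the muscle genes themselves. Marcal1del/del replicate 1 at 25 °C was also high in the muscle genes (mean 7.33, against 6.52 and 5.90) but was not counted among these 3. The array names fall into 2 series, 1 with all 12 yw and Marcal1del/del arrays and 1 with all 6 arrays of the RpII2154/FM7 genotypes. Array series and RpII2154/FM7 therefore cannot be told apart when these groups are set against the others.

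Of the 26 muscle genes, 19 lay above the array median on all 18 arrays. Act79B, an actin of tubular muscles, lay between 3.41 and 3.85 and TpnC41C, a troponin C, between 2.70 and 3.89, both below the array median on every array. The remaining 5 genes (fln, Act88F, TpnC4, sls and Unc-89) lay on both sides of it. The muscle genes varied widely between arrays: the range over the 18 arrays had a median of 2.61 log2 units for the 26 genes and exceeded 2 units for 18 of them (69.2%), against a median of 0.69 and a share of 5.18% over all 18769 probe sets tested.

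**Figure D1:**
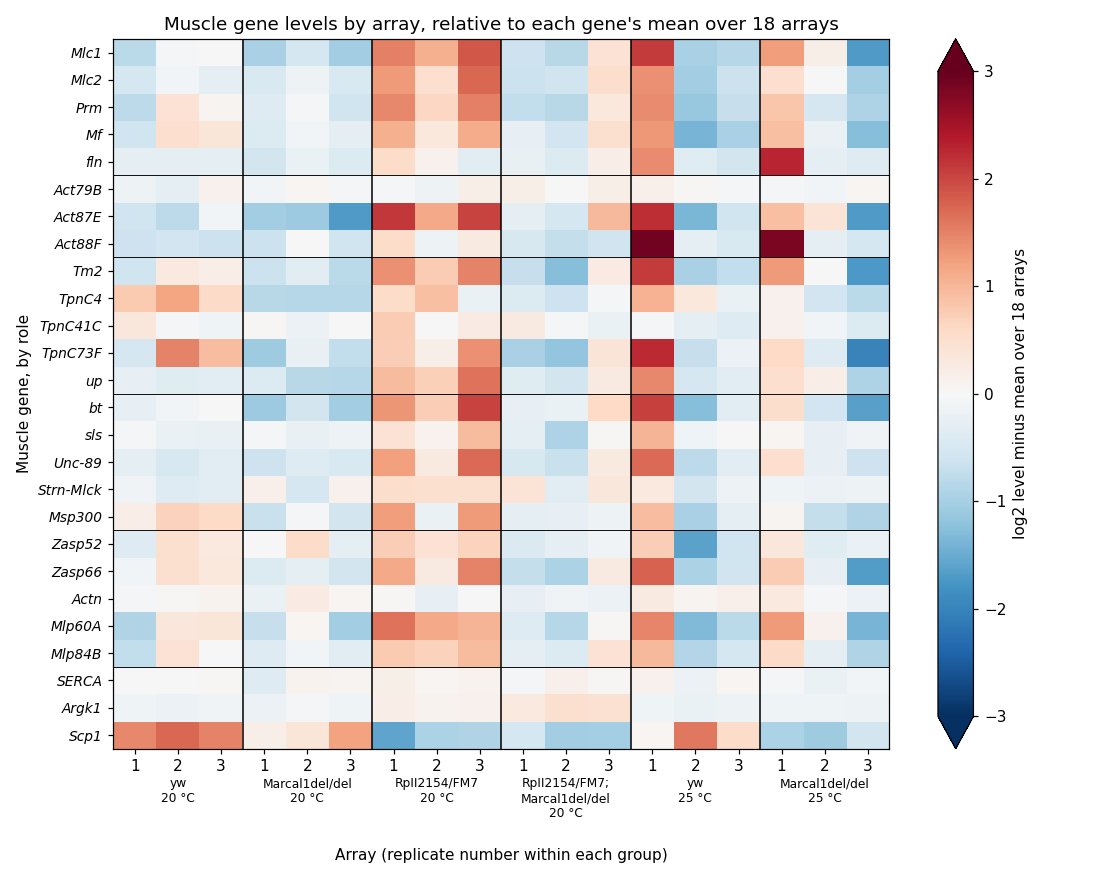
Each row is 1 of the 26 muscle genes, grouped by role, and each column is 1 array, with the 3 replicates of each group side by side. Colour gives the log2 level minus that gene's mean over the 18 arrays. The first array of each 25 °C group and the 3 RpII2154/FM7 arrays are high for most rows. Scp1 is low on the RpII2154/FM7 arrays, and Act79B, Actn, SERCA and Argk1 span only 0.45 to 0.67 units over the 18 arrays.

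Much of this spread lay between replicates of 1 group. The mean level of the 26 genes was 7.93, 6.13 and 6.37 on the 3 yw arrays at 25 °C and 7.33, 6.52 and 5.90 on the 3 Marcal1del/del arrays at 25 °C. At 20 °C it was 6.51, 6.91 and 6.85 in yw, 6.29, 6.54 and 6.30 in Marcal1del/del, 7.54, 7.08 and 7.62 in RpII2154/FM7, and 6.42, 6.22 and 6.90 in the combined genotype. The range within a group was thus 1.80 and 1.43 in the 25 °C groups and 0.25 to 0.68 in the groups at 20 °C. The spread between replicates of the same group (residual SD of the fit) had a median of 0.65 over the 26 genes and 0.17 over all probe sets.

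The first yw array at 25 °C was the highest of its group for 25 of 26 genes, with a median excess of 1.86 over the mean of the other 2 arrays and an excess over 1 unit for 18 genes. Over all probe sets, 33.5% were highest on that array and 2.83% exceeded 1 unit. The first Marcal1del/del array at 25 °C was the highest of its group for 23 genes, with a median excess of 0.97 and an excess over 1 unit for 12, where all probe sets gave 36.7% and 0.98%. These are descriptions of single arrays and carry no test.

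Thick filament genes showed the pattern plainly. Mlc1, the alkali light chain of myosin, read 10.69, 7.63 and 7.75 in yw at 25 °C, and 9.86, 8.78 and 6.91 in Marcal1del/del at 25 °C. At 20 °C Mlc1 read 7.81, 8.55 and 8.60 in yw, 7.63, 8.08 and 7.55 in Marcal1del/del, 10.12, 9.66 and 10.46 in RpII2154/FM7, and 7.99, 7.77 and 9.04 in the combined genotype. The 3 RpII2154/FM7 arrays lay above all other arrays at 20 °C and within the reach of the first arrays at 25 °C.

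Mlc2, the regulatory light chain of myosin, was alike in shape, at 7.56, 5.12 and 5.53 in yw and 6.67, 6.18 and 5.16 in Marcal1del/del at 25 °C. Its RpII2154/FM7 arrays read 7.44, 6.68 and 7.89, against 5.65, 6.09 and 5.89 in yw at 20 °C. Prm, paramyosin, the core protein of invertebrate thick filaments, read 8.52, 7.69 and 8.59 in RpII2154/FM7 and 6.34, 6.24 and 7.38 in the combined genotype. These groups did not overlap for Prm. Mf, myofilin, another thick filament protein, ranged from 7.71 to 10.42 over the 18 arrays, and its lowest and highest values both came from yw at 25 °C.

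Among thin filament genes, Act87E, a muscle actin, spanned the widest range within a group, at 9.01, 5.43 and 6.20 in yw at 25 °C. It read 8.92, 7.92 and 8.82 in RpII2154/FM7, 6.49, 6.27 and 7.75 in the combined genotype, 6.18, 6.02 and 6.72 in yw and 5.76, 5.69 and 5.09 in Marcal1del/del at 20 °C. The 3 actins measured did not move as a block, since Act79B spanned 0.45 units over all arrays. Tm2, a tropomyosin of the thin filament, read 9.98, 6.91 and 7.14 in yw and 9.14, 7.90 and 6.14 in Marcal1del/del at 25 °C. TpnC73F, a troponin C, had the widest range of all members over the arrays, from 5.42 to 9.66. It read 8.17, 7.61 and 8.81 in RpII2154/FM7 and 6.91, 8.92 and 8.35 in yw at 20 °C, groups that overlapped. The gene up, which encodes the troponin T that fixes the troponin complex to tropomyosin, read 7.68, 7.44 and 8.36 in RpII2154/FM7, 6.48, 6.36 and 6.41 in yw at 20 °C and 6.35, 6.17 and 6.99 in the combined genotype.

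The giant proteins followed. The gene bt encodes projectin, an elastic kinase that links thick filaments to Z-discs, and read 9.13, 5.80 and 6.73 in yw at 25 °C and 8.40, 7.81 and 9.11 in RpII2154/FM7. Unc-89 (Obsc in the current annotation), an obscurin of the M-line, read 5.79, 3.30 and 3.77 in yw at 25 °C and 5.32, 4.36 and 5.79 in RpII2154/FM7. Msp300, a nesprin that anchors nuclei in muscle, ranged from 5.97 to 8.21. Strn-Mlck, a kinase of the myosin light chain, moved less, from 5.12 to 6.19.

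Of the Z-disc genes, Mlp60A, a muscle LIM protein, read 10.58, 7.79 and 8.30 in yw at 25 °C and 10.74, 10.25 and 10.12 in RpII2154/FM7. Mlp84B, its relative, ranged from 6.14 to 8.03. Zasp66, a Z-disc scaffold, read 10.14, 7.41 and 7.76 in yw and 9.13, 8.12 and 6.70 in Marcal1del/del at 25 °C. Zasp52, a scaffold of the same family, read 9.08, 6.73 and 7.72 in yw at 25 °C. Actn, alpha-actinin, which crosslinks actin in Z-discs and also in cells other than muscle, stayed between 9.79 and 10.35. The Z-disc genes thus held strongly varying scaffolds beside a steady crosslinker.

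Likeness was measured as Pearson's r between a gene and the mean of the other 25 over the 18 arrays, which share groups and array series, and serves as a description. It exceeded 0.8 for 14 of 26 genes, and was highest for Tm2 and Zasp66 (both 0.98), Mlc1 (0.97) and Prm (0.96). Taken as deviations from the group means, so that no difference between groups enters, it exceeded 0.8 for 17 genes. Without the 2 arrays farthest from the median of the mean, it exceeded 0.8 for 13. These arrays were yw replicate 1 at 25 °C and RpII2154/FM7 replicate 3. At the other end lay SERCA, the calcium pump of the sarcoplasmic reticulum (0.47), Actn (0.36), Act79B (0.13), Argk1, arginine kinase, which buffers ATP (0.13), and Scp1, a sarcoplasmic calcium-binding protein, the 1 gene with a value below 0 (-0.38).

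Act88F and fln read differently on the arrays with high muscle levels. Act88F, the actin of the indirect flight muscles, read 6.82 on the first yw array and 6.76 on the first Marcal1del/del array at 25 °C, and 3.21 to 4.47 on the other 16 arrays. The gene fln, which encodes flightin, a thick filament protein of the same muscles, read 4.95 and 5.83 on those 2 arrays and 2.99 to 4.10 on the other 16. No other array reached them in either gene. Mlc1, by contrast, read 9.86 and 10.69 on the 2 arrays and up to 10.46 on the other 16, Act87E read 7.69 and 9.01 against up to 8.92, and Tm2 read 9.14 and 9.98 against up to 9.37.

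**Figure D2:**
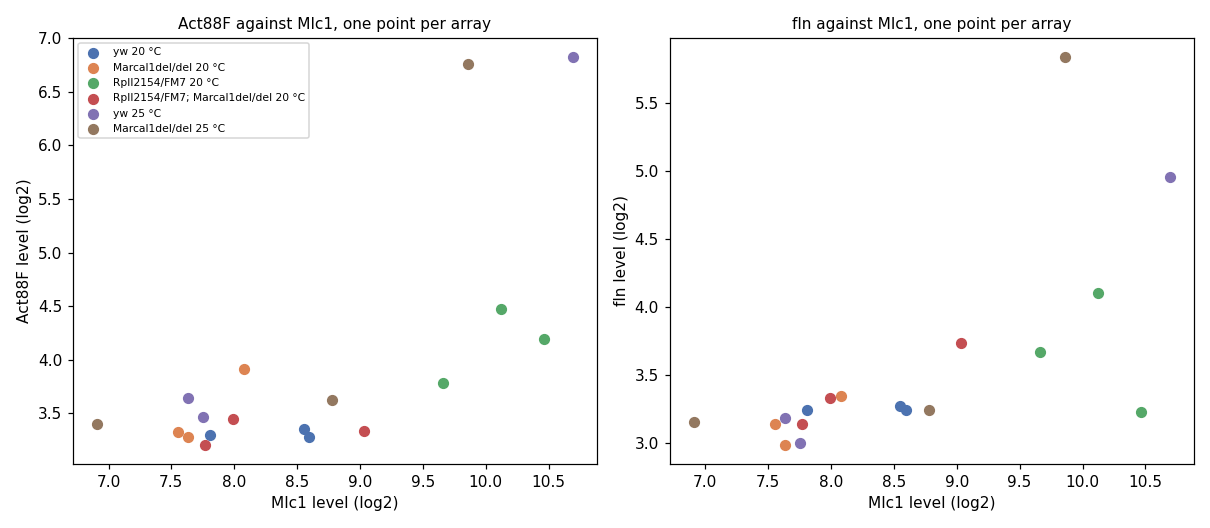
Each point is 1 array, with the Mlc1 level (log2) on the horizontal axis and the level of Act88F (left) or fln (right) on the vertical axis, coloured by group. The first arrays of both 25 °C groups have Act88F at 6.76 and 6.82, while the RpII2154/FM7 arrays reach Mlc1 levels up to 10.46 with Act88F at 4.47 or lower.

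The RpII2154/FM7 arrays thus had Mlc1, Act87E and Tm2 at levels near those of the first 25 °C arrays, with Act88F at 4.47, 3.78 and 4.20 and fln at 4.10, 3.67 and 3.23. The excess of the first yw array at 25 °C over its 2 partners was 3.27 for Act88F, 3.20 for Act87E, 3.00 for Mlc1 and 2.95 for Tm2. On the first Marcal1del/del array it was 3.25 for Act88F and 2.63 for fln, above the 2.02 of Mlc1, 2.13 of Tm2 and 1.55 of Act87E. TpnC4, a troponin C used in flight muscle, showed smaller excesses of 1.00 and 0.81, and its 4.68 and 3.75 on those arrays lay within the range of the other arrays, which reached 4.82 in yw at 20 °C. The excess was near 0 for Argk1 (0.05 and 0.02) and negative for Scp1 (-0.99 and -0.15).

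In bulk tissue of this kind, fewer cells of a type and less RNA per cell cannot be told apart, and the same holds for muscle attached to the ovary and muscle carried over from outside it. Markers of other tissues were read on the same arrays. The mean of 5 tracheal genes was 5.03, 4.39 and 4.43 in yw at 25 °C, and 4.51, 4.53 and 4.33 in Marcal1del/del at 25 °C. The mean of 13 hemocyte genes was 5.91, 5.30 and 5.43, and 5.65, 5.47 and 5.49. Within these groups both lists were thus highest on the first yw array, and hemocyte genes also on the first Marcal1del/del array. The mean of 14 neuronal genes was 4.30, 4.10 and 4.15, and 4.32, 4.19 and 4.19, likewise highest on the first array of each group. Other lists differed. In yw at 25 °C the first array was lowest for 9 fat body genes (6.21, 6.57 and 6.94). It was not highest for 8 gut genes (4.89, 4.90 and 4.78), 11 eggshell genes (11.64, 11.18 and 11.98) or 3 spermathecal genes (4.48, 4.16 and 4.71). It was highest for 10 germline genes (9.70, 9.48 and 9.53) and 6 follicle cell genes (4.68, 4.10 and 4.32). The part of these tissues in the muscle levels was not tested.

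RpII2154/FM7 ovaries at 20 °C had higher levels than yw for 23 of the 26 muscle genes, with a median log2 difference of 0.73, against a median of -0.00 and 49.6% positive over all probe sets. The groups did not overlap for 15 genes that were higher and 1 that was lower, where 9.61% and 9.97% of all probe sets did so. The limma test called 1 member, the lower Scp1, at an adjusted p under 0.05, against 2.76% of all probe sets called. A further 10 members passed only an unadjusted p under 0.05, which makes 11 of 26, against 17.2% of all probe sets.

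By role, the median difference was highest in thick filament genes (5 of 5 positive, median 1.29). Among single genes the positive differences reached 2.25 ± 0.75 (SE, adjusted p = 0.13) for Act87E, 1.76 ± 0.72 (adjusted p = 0.22) for Mlc1 and 1.41 ± 0.44 (adjusted p = 0.10) for up. The fit pools the spread of all 6 groups. Fitted on the 6 arrays of the 2 groups alone, Act87E, Mlc1, up and Strn-Mlck were called as well, and the count rose from 1 to 5. The giant proteins and linkers were positive for 5 of 5 genes, with a median of 0.76. Strn-Mlck read 6.19, 6.14 and 6.16 against 5.56, 5.29 and 5.35, a difference of 0.76 ± 0.22 (adjusted p = 0.076). Another Strn-Mlck set did not show this rise, at 5.44, 5.35 and 5.06 in RpII2154/FM7 against 5.27, 5.54 and 5.40 in yw. Its correlation with the other members was 0.16. The remaining set averaged 3.13 in RpII2154/FM7 and 2.86 in yw, and lay below every array median.

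Putting Marcal1del/del on top of RpII2154/FM7 went with lower levels for 23 of 26 muscle genes, with a median difference of -0.92, against a median of 0.02 and 54.6% positive over all probe sets. Both groups belong to 1 array series. They did not overlap for 13 lower genes and 1 higher gene, where 8.92% of all probe sets were lower and 13.5% higher without overlap. The limma test called 0 of 26 members, against 1.88% of all probe sets, and 14 passed an unadjusted p under 0.05, against 18.6% of all probe sets.

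In this comparison the median was -1.40 over 5 thick filament genes, -1.32 over 5 genes of tropomyosin and the troponins, -1.01 over 5 giant proteins and linkers, -0.90 over 5 Z-disc genes and -0.82 over 3 actins. Over the 3 calcium and energy genes (SERCA, Argk1 and Scp1) it was 0.26, with 2 of 3 positive. SERCA counts there by its brightest set. Another SERCA set read 7.06, 5.99 and 7.20 in RpII2154/FM7 and 5.22, 5.06 and 6.05 in the combined genotype. The remaining one read 4.47, 4.36 and 4.20, and 3.54, 3.62 and 3.73. Mlc1 differed by -1.82 ± 0.72 (SE, adjusted p = 0.19), Tm2 by -1.78 ± 0.73 (adjusted p = 0.21) and Prm by -1.62 ± 0.57 (adjusted p = 0.15). The Tm2 arrays read 9.23, 8.64 and 9.37 in RpII2154/FM7 and 7.19, 6.59 and 8.12 in the combined genotype, without overlap. Fitted on these 6 arrays alone, Zasp52 (-0.89, adjusted p = 0.034) and Mlp60A (-1.66, adjusted p = 0.030) were called. This comparison and the one with yw share the 3 RpII2154/FM7 arrays, so their opposite signs are not independent.

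**Figure D3:**
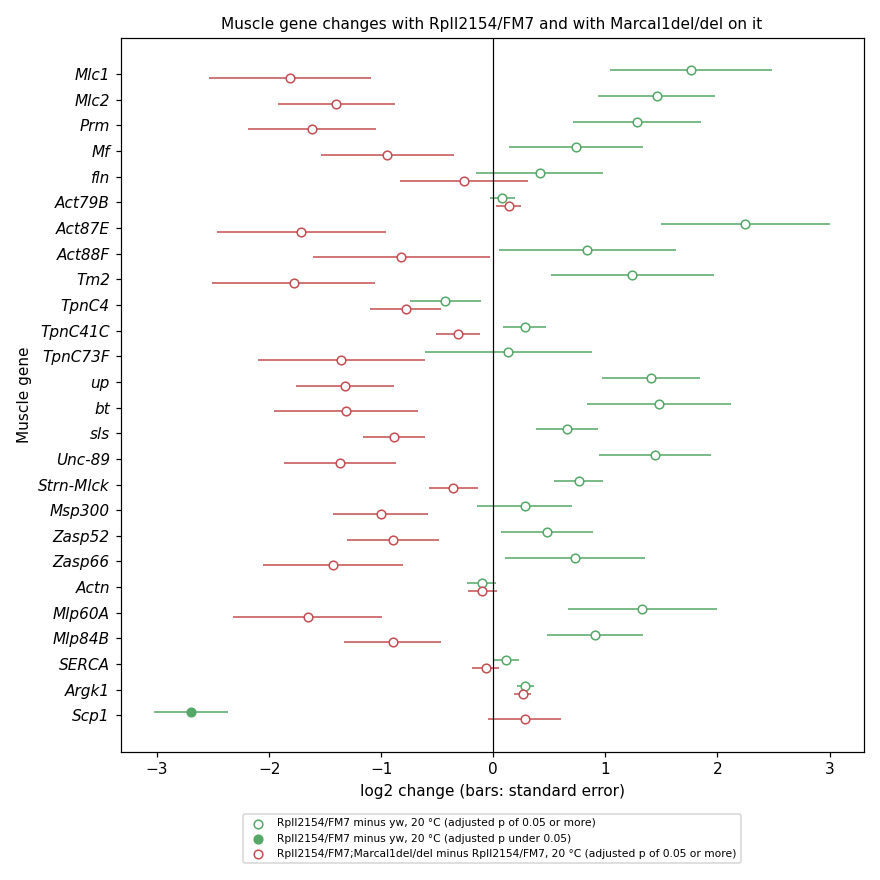
For each of the 26 muscle genes, the log2 difference of RpII2154/FM7 from yw (green) and of the combined genotype from RpII2154/FM7 (red) is shown with its standard error, and filled points have an adjusted p under 0.05. Most green points lie to the right of 0 and most red points to the left, and Scp1 at -2.70 is the 1 filled point.

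Other measures moved between these groups as well. The tracheal mean was 4.74, 4.62 and 4.91 in RpII2154/FM7, 4.42, 4.50 and 4.51 in yw and 4.25, 4.14 and 4.52 in the combined genotype. The hemocyte mean was 5.97, 5.60 and 5.89, against 5.37, 5.66 and 5.49 in yw and 5.25, 5.26 and 5.49 in the combined genotype. The fat body mean in RpII2154/FM7 was 6.76, 6.45 and 5.89, lower on average than the 6.69, 7.31 and 7.04 in yw. In the combined genotype it was 5.82, 5.86 and 6.33. The follicle cell mean averaged 4.84 in RpII2154/FM7 and in yw, and 4.32 in the combined genotype. In RpII2154/FM7, yw and the combined genotype the spermathecal mean averaged 6.12, 4.83 and 4.97, and the eggshell mean 11.73, 12.07 and 11.28. The eggshell mean of RpII2154/FM7 includes 8.61 on replicate 3. In RpII2154/FM7 against yw, 1 of 13 hemocyte genes was called higher, PPO1, a phenoloxidase of crystal cells (0.79, adjusted p = 0.040), and 1 lower, vkg, a collagen IV chain (-0.45, adjusted p = 0.011). None of the 5 tracheal genes was called there. In the combined genotype against RpII2154/FM7, PPO1 was lower (-0.79, adjusted p = 0.048), as was serp, a chitin deacetylase of tracheae (-0.88, adjusted p = 0.027). PPO1 lay near the array medians: it read 3.85 to 4.00 in yw, below all of them, and averaged 3.91 in the combined genotype. As a sign of RNA integrity, GAPDH control sets read higher at the 3' than at the 5' end by an average of 1.49 ± 0.14 (SD, n = 3) in RpII2154/FM7, 1.53 ± 0.26 in the combined genotype and 1.15 ± 0.05 in yw at 20 °C. For the actin control sets the same difference was 1.37 ± 0.17, 1.70 ± 0.29 and 0.97 ± 0.07. The part of these measures in the muscle differences was not tested.

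Over the 18 arrays, the tracheal mean correlated with the muscle mean at r = 0.89 and the hemocyte mean at r = 0.88. The 2 arrays farthest from the median of the muscle mean were yw replicate 1 at 25 °C (7.93) and RpII2154/FM7 replicate 3 (7.62). Without them both correlations stood at 0.80, with the first Marcal1del/del array at 25 °C kept. The value was 0.58 for 6 follicle cell genes, 0.37 for 10 germline genes, 0.35 for 4 genes of non-muscle actin and myosin, 0.34 for neuronal genes, 0.28 for 3 spermathecal genes, 0.06 for 9 fat body genes, 0.01 for 8 gut genes and -0.19 for eggshell genes. Without the same 2 arrays these became 0.51, 0.33, 0.38, 0.30, 0.50, 0.40, 0.24 and 0.27 in that order, so that the eggshell value changed sign. The eggshell mean was lowest, at 8.61, on RpII2154/FM7 replicate 3, an array left out there. All of these share the arrays and their groups. Of the hemocyte list, eater, Sr-CI, lz and He lay below the array median on all 18 arrays, as did uif of the tracheal list. Of the 14 neuronal genes, 5 did so, and of the 8 gut genes, 5.

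**Figure D4:**
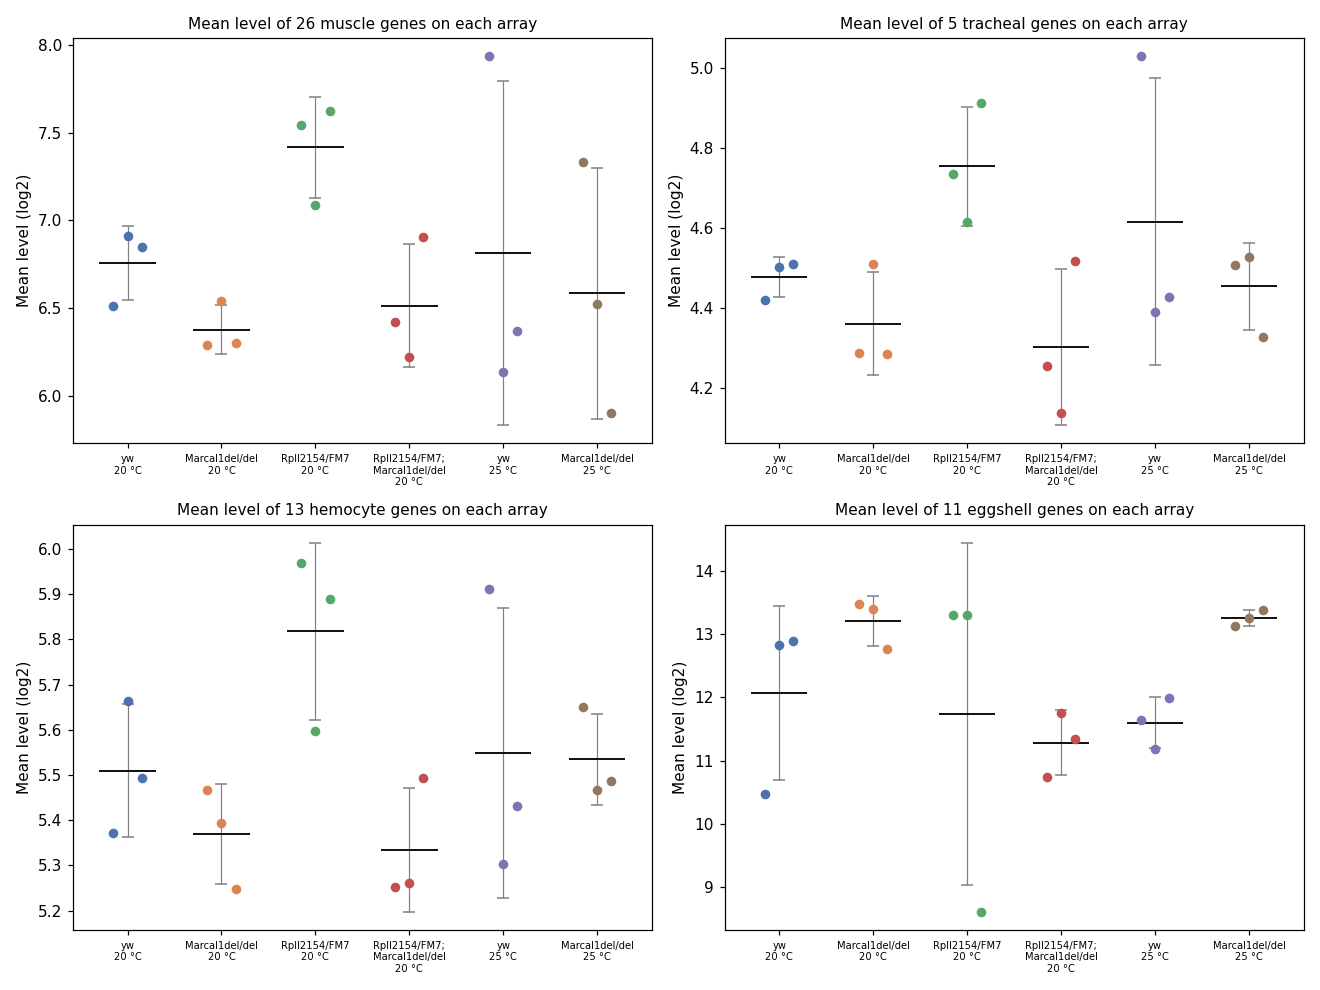
The 4 panels give the mean log2 level of the 26 muscle genes, 5 tracheal genes, 13 hemocyte genes and 11 eggshell genes on each array, with the group mean (line) and SD (grey bar, n = 3). Muscle, tracheal and hemocyte means are high on the first yw array at 25 °C and in RpII2154/FM7 on average, and the eggshell mean drops to 8.61 on RpII2154/FM7 replicate 3.

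TpnC4, Scp1 and Argk1 held every call among the sets that stand for the 26 genes. TpnC4 was lower in Marcal1del/del than in yw at 20 °C. Its levels were 4.40, 4.82 and 4.19 in yw and 2.78, 2.76 and 2.76 in Marcal1del/del, a difference of -1.70 ± 0.32 (SE, adjusted p = 0.0097). The Marcal1del/del values lay below every array median, where a set reports little signal, so no fold is given. In this comparison 1 of 26 members was called, against 1.18% of all probe sets.

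TpnC4 read 4.68, 3.94 and 3.42 in yw and 3.75, 3.05 and 2.82 in Marcal1del/del at 25 °C, groups that overlap (-0.81, adjusted p = 0.42). It read 4.16, 4.53 and 3.42 in RpII2154/FM7 and 3.20, 3.00 and 3.57 in the combined genotype, which overlap too (-0.78, adjusted p = 0.20). Over all genotypes, the 9 arrays with Marcal1del/del lay between 2.76 and 3.75 and the 9 without it between 3.42 and 4.82. The call at 20 °C was lost without yw replicate 2 (adjusted p = 0.070).

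Scp1 was highest in yw at 20 °C, at 7.80, 8.08 and 7.84. It read 6.52, 6.72 and 7.56 in Marcal1del/del, 4.77, 5.40 and 5.46 in RpII2154/FM7 and 5.82, 5.32 and 5.32 in the combined genotype. At 25 °C it read 6.42, 7.93 and 6.90 in yw and 5.40, 5.30 and 5.81 in Marcal1del/del. Both RpII2154/FM7 genotypes and Marcal1del/del at 25 °C thus lay at the bottom and overlapped one another, while RpII2154/FM7 was high for most sarcomere genes.

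Scp1 fell by 2.70 ± 0.33 (SE) on the log2 scale in RpII2154/FM7 against yw (6.48-fold, adjusted p = 0.00018), a call kept in all 14 alternatives, in a comparison across the array series. It fell by 1.44 ± 0.33 in the combined genotype against Marcal1del/del at 20 °C (2.72-fold, adjusted p = 0.021). That call was lost without Marcal1del/del replicate 3 (adjusted p = 0.080), without replicate 2 of the combined genotype (0.077) or without its replicate 3 (0.069). In Marcal1del/del against yw at 25 °C it fell by 1.58 ± 0.33 (2.99-fold, adjusted p = 0.022), where 1 of 26 members was called and 1.23% of all probe sets. That call was lost without yw replicate 2 or 3 or Marcal1del/del replicate 1 or 2 at 25 °C (adjusted p from 0.060 to 0.12). At 20 °C the difference was -0.97 (adjusted p = 0.30), and the test of the difference between the 2 temperatures gave -0.60 ± 0.46 (adjusted p = 1.00).

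Argk1 was the steadiest of the 26 genes within groups, with a residual SD of 0.054. It read 10.76, 10.66 and 10.68 in RpII2154/FM7 and 10.85, 11.02 and 11.01 in the combined genotype, and 10.36 to 10.48 on the other 12 arrays, without overlap. Argk1 rose by 0.54 ± 0.07 (SE) in the combined genotype against Marcal1del/del (1.45-fold, adjusted p = 0.00055), in all 14 alternatives, where 2 of 26 members were called and 3.85% of all probe sets. The array series changes with this comparison. Within the series of the RpII2154/FM7 genotypes, Argk1 differed by 0.26 between the combined genotype and RpII2154/FM7 (adjusted p = 0.087).

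**Figure D5:**
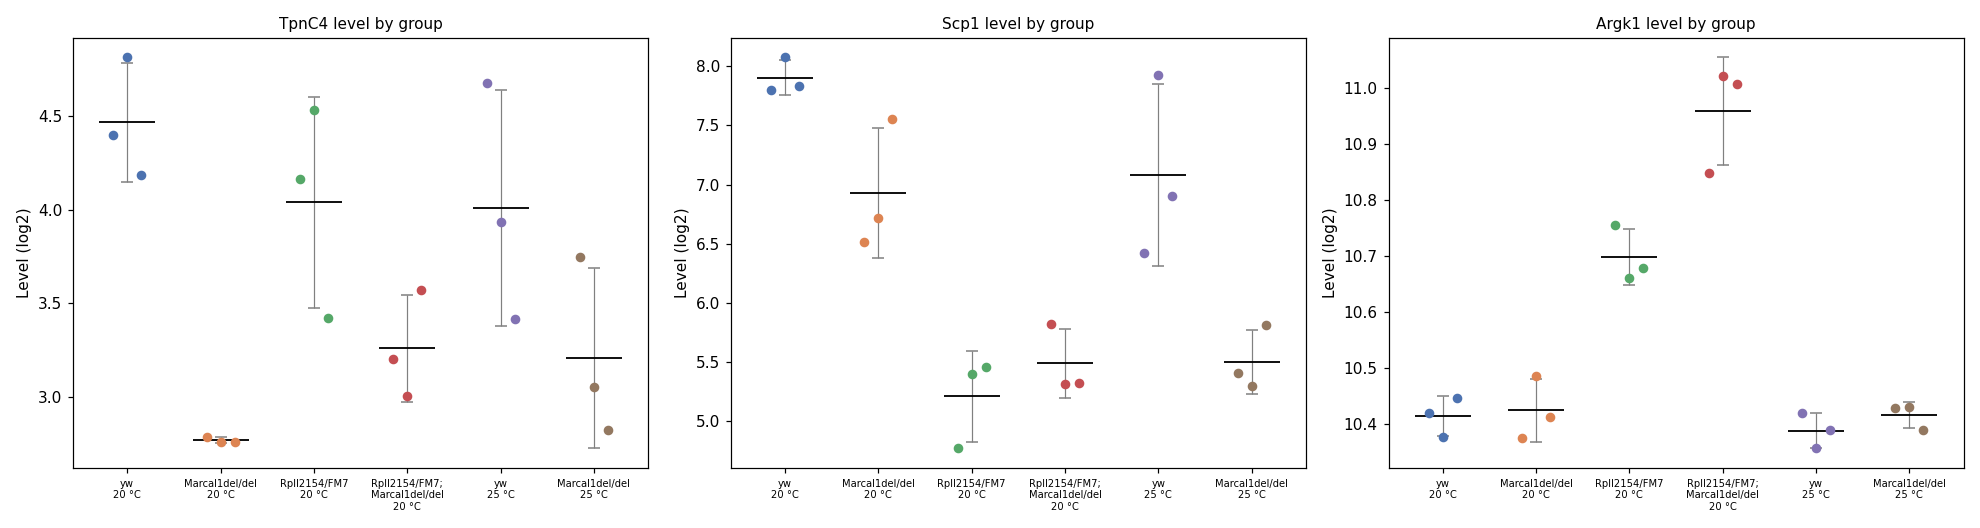
Levels (log2) of TpnC4, Scp1 and Argk1 are shown for the 3 arrays of each group, with the mean (line) and SD (grey bar). TpnC4 lies at 2.76 to 2.78 in Marcal1del/del at 20 °C, Scp1 is highest in yw at 20 °C, and Argk1 is above 10.6 on the 6 arrays of the RpII2154/FM7 genotypes.

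For 10 of the 26 genes, several probe sets name the gene alone, 45 sets in all, and these did not always move together. SERCA was represented by its brightest set, at 9.65 to 10.21, with r = 0.47 to the other members. Another SERCA set, at 5.06 to 7.20, followed them at r = 0.93. The remaining set, at 3.43 to 4.47, was lower in the combined genotype than in RpII2154/FM7 (-0.71 ± 0.17 SE, adjusted p = 0.043), where its levels of 3.54 to 3.73 lay below every array median. The labels do not say which transcripts each set reads.

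The gene sls encodes Sallimus, the titin-like spring next to the Z-disc, and its brightest set lay between 3.12 and 5.08. Another sls set read 5.17, 4.32 and 5.76 in RpII2154/FM7, 3.16, 2.86 and 3.24 in yw and 3.60, 3.41 and 3.35 in the combined genotype, so that the RpII2154/FM7 arrays lay above both. This set was higher in RpII2154/FM7 than in yw by 2.00 ± 0.32 (SE, adjusted p = 0.0026) and differed by -1.63 ± 0.32 (adjusted p = 0.015) in the combined genotype against RpII2154/FM7. In yw and the combined genotype it lay below every array median, so no fold is given. It was singled out after its values were seen. For Msp300, 6 sets correlated with the other members at -0.37 to 0.84, and for Mlp60A the brightest set stood at 0.93 against 0.01 and -0.11 for 2 sets near or below the array medians. Both sets of Prm (0.96 and 0.95) and of Mf (0.94 and 0.96) moved alike.

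Marcal1del/del ovaries at 20 °C had lower levels than yw for 20 of 26 muscle genes, with a median of -0.22 against 0.01 over all probe sets. The groups did not overlap for 7 lower genes (Act87E, TpnC4, up, bt, Msp300, Zasp66 and Scp1), against 5.9% of all probe sets. Msp300 read 7.14, 7.63 and 7.54 in yw and 6.26, 6.88 and 6.40 in Marcal1del/del. At 25 °C the median was -0.12, and between -0.56 and 0.37 with 1 array left out in turn. Scp1 was the 1 gene lower without overlap there, against 7.85% of all probe sets.

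Warming from 20 to 25 °C gave no call among the 26 genes. In yw 0 members were called by limma, against 0.256% of all probe sets, and 1 passed an unadjusted p under 0.05 (7.43% of all probe sets did), with a median of 0.07 and 13 genes on either side of 0. Without yw replicate 1 at 25 °C the median was -0.52. In Marcal1del/del 0 were called, against 0.202% of all probe sets, and 1 passed an unadjusted p under 0.05 (4.25% of all probe sets did), with a median of 0.07. Act88F was the 1 gene whose yw arrays at 25 °C (6.82, 3.64 and 3.47) all lay above those at 20 °C (3.30, 3.35 and 3.28), where 6.09% of all probe sets were higher without overlap. In Marcal1del/del, TpnC4 was the 1 gene higher without overlap at 25 °C, against 5.15% of all probe sets, and Scp1 the 1 gene lower, against 4.99%.

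The Marcal1del/del effect was not called as different between the temperatures for any member (0 of 26 by limma, and 0 at an unadjusted p under 0.05, against 0.0107% of all probe sets called). Between backgrounds with and without RpII2154/FM7, 0 of 26 members were called, 3 passed an unadjusted p under 0.05 (10.7% of all probe sets did), the median of the differences was -0.66, and 0.97% of all probe sets were called. This second comparison contrasts a pair of groups from each array series, so a shift common to a series drops out of it.

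Beyond the members, 35 further muscle genes were read, among them filament, membrane, attachment, chaperone and metabolic genes, many of which other tissues also express. Their mean followed that of the 26 genes (r = 0.93 over 18 arrays) with a smaller spread, and 4 of the 35 had r over 0.8. In RpII2154/FM7 against yw 0 of 35 were called. In the combined genotype against RpII2154/FM7, 3 were lower and 1 higher. These were rhea, the talin that joins integrins to actin (-1.26, adjusted p = 0.00039), if, an integrin alpha subunit (-1.04, adjusted p = 0.030), jbug, a filamin (-1.43, adjusted p = 0.017), and Pax, paxillin, which was higher (0.70, adjusted p = 0.0096). Against Marcal1del/del, jbug and rhea were again lower and Pax and Pgm1, a phosphoglucomutase, higher in the combined genotype. At 25 °C, unc-45, a myosin chaperone, was lower in Marcal1del/del than in yw (-0.45, adjusted p = 0.0094), as was Pgm1 (-0.43, adjusted p = 0.048).

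Called genes of the remaining tissue lists were few. In RpII2154/FM7 against yw these were Apoltp, a lipid transfer particle protein of the fat body (-1.65), aub, a germline Argonaute (0.74), and bab1, a transcription factor of ovarian somatic cells (-1.66). In the combined genotype against RpII2154/FM7 they were Tep4 of the fat body list (-1.16), hdly of the spermathecal list (-1.52), and Jon25Biii (-0.74) and Jon99Ci (0.34), a pair of gut peptidases. Jon99Ci lay below the array median on all 18 arrays. In the combined genotype against Marcal1del/del they were srp (-1.97) and vkg (-0.34) of the hemocyte list, Jon25Biii (-0.75), the chorion genes Cp36 (-1.91) and Cp38 (-1.90), egl (0.68) and aub (0.44). In Marcal1del/del against yw, bab1 was lower at 20 °C (-2.06) and srp higher at 25 °C (2.00). At 25 against 20 °C, aub was higher in yw (0.55) and in Marcal1del/del (0.62), and bab1 lower in yw (-1.59). The Marcal1del/del effect on egl differed with and without RpII2154/FM7 (0.81). Adjusted p-values of these calls were all under 0.05 by limma.

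The genes whose levels most resembled the mean of the 26 over the 18 arrays were CG5023 (r = 0.97), pncr003:2L (0.97), CG13067, Jhbp14, CG17190, CG5177, Mp20 (0.95), CG43897, zormin (0.94) and Neurochondrin (0.94). Mp20 is a calponin-like muscle protein, zormin a titin-related protein of Z-discs and M-lines, and pncr003:2L a transcript that encodes small peptides which inhibit SERCA in fly muscle. On deviations from the group means, 8 of these 10 were again among the top 10, joined by fau and l(2)efl, a small heat shock protein. In all, 15 of 11927 genes outside the members had r over 0.9. Mp20 averaged 10.13 ± 0.35 (SD, n = 3) in RpII2154/FM7, 9.55 ± 0.50 in yw at 20 °C and 8.91 ± 0.50 in the combined genotype, the same order as the members' mean.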

How the data were processed

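RNA from 18 ovary samples was hybridised to Affymetrix Drosophila Genome 2.0 arrays, 1 sample each. The deposited log2 values, 1 per probe set, were made by the authors with RMA per the submitters' processing notes; its settings are not given in the sources used here. Of 18952 probe sets, 183 controls were left out. The platform annotation, with symbols updated against NCBI Release 6, names 1 gene for 13647 sets, several for 402 and none for 4720. Groups followed the sample titles; for replicates 2 and 3 of RpII2154/FM7, another label field has FM8 and FM9 in place of FM7.

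Here, 18769 sets were fitted together with limma 3.58.1 in R 4.3.3 (group term only, 12 residual and 3.85 prior degrees of freedom), with 2-sided tests, Benjamini-Hochberg adjustment within each of 9 contrasts and calls at an adjusted p under 0.05. The members, lists and tests were chosen with earlier results of these data known. Named were all members, Marcal1, called genes of the other lists and the 10 genes most like the members' mean. On simulated data for the combined genotype against RpII2154/FM7, 200 of 18769 sets were changed. Recovery was 62% at 1.5-fold, 90% at 2-fold and 96% at 4-fold, with 12 false calls among 181. The changed sets were drawn from all sets, whose median residual SD was 0.17 against 0.65 for the members. These rates therefore do not describe the members. The labels state no pairing, and equal replicate numbers were not used as pairs in the main fit. In 0 of 15 group pairs were all 3 correlations of deviations over 0.1 (range -0.33 to 0.47). The yw and Marcal1del/del groups at 25 °C gave 0.47, 0.07 and 0.30, and whether their arrays shared handling was not tested. Alternatives changed the arrays fitted, the variance model, centring, a filter on low sets and the set that stands for a gene.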

Additional observations from a re-analysis of the deposited data

Results flagged for a closer look

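Among the 35 further muscle genes, 2 had Marcal1del/del effects that differed between backgrounds with and without RpII2154/FM7 by the test of the difference itself. For rhea the difference of effects was -1.29 ± 0.22 (SE, adjusted p = 0.0068, limma). Its level averaged 10.06 ± 0.16 (SD, n = 3) in yw, 10.09 ± 0.18 in Marcal1del/del, 10.08 ± 0.22 in RpII2154/FM7 and 8.82 ± 0.30 in the combined genotype at 20 °C, and the last group did not overlap any other. For Pax the difference of effects was 0.95 ± 0.18 (SE, adjusted p = 0.014), with averages of 7.63 ± 0.08, 7.38 ± 0.20, 7.23 ± 0.30 and 7.93 ± 0.07 in the same order, so that it was highest in the combined genotype. None of the 26 members passed that test.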

How the results depend on the processing

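Of 399 pairs of a result and an alternative, 361 stayed within the tolerance (counts within 1.5 times, medians within the members' median residual SD of 0.65, spreads within 1 SD, and single genes with the same sign and call). No called gene changed sign. The median member change, which has no test, crossed 0 in at least 1 alternative for 5 of 9 contrasts: it reached 0.37 in Marcal1del/del against yw at 25 °C, -0.11 for 25 against 20 °C in Marcal1del/del and -0.07 in the combined genotype against Marcal1del/del, and the 2 others are given below. Unless a value shows it, the cause of a change was not tested. In RpII2154/FM7 against yw, the count of members called was 1, and 5 with only the compared arrays, 4 with array weights and 2 with the replicate block, the filter on low sets, trended robust variance, centred arrays or the mean over a gene's sets. In the combined genotype against RpII2154/FM7 it was 0, and 2 with only the compared arrays and 1 with the filter (Argk1) or without the 3 arrays that stand apart (TpnC4). In Marcal1del/del against yw it was 1 at each temperature, and 0 at 20 °C with the filter, which drops TpnC4, and 0 at 25 °C with only the compared arrays (Scp1, adjusted p = 0.12). For 25 against 20 °C in yw it was 0, and 1 with array weights or without the 3 arrays (Zasp52), and in Marcal1del/del it was 1 with array weights (Scp1). Leaving out each replicate in turn gave 0 to 1 for Marcal1del/del against yw at both temperatures and 1 to 2 for the combined genotype against Marcal1del/del. Without the 3 arrays the median member change was -0.61 for 25 against 20 °C in yw (0.07 with all arrays). For the difference of the Marcal1del/del effects between temperatures it was 1.04. Leaving out single replicates moved that median from -0.28 to 0.91, the last without yw replicate 1 at 25 °C. The 3 arrays include the first yw array at 25 °C but not the first Marcal1del/del array, the highest of its group for 23 members. In counts chosen after seeing the data, 7 members were lower without overlap in Marcal1del/del against yw at 20 °C, 14 without the 3 arrays, and 7 to 14 with 1 replicate left out. Leaving out arrays can only keep or raise such a count: without yw replicate 1 it was 14 of 26 beside 13.9% of all probe sets, and without Marcal1del/del replicate 2 it was 11 beside 11.2%, against 5.9% with all arrays. The replicate block, in samples that the labels do not pair, changed no other call of a member. With 3 arrays a group, and a residual SD near 1 for the most variable members, differences of 1 to 2 units were often not called.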
